A study of Mus musculus with 6 samples.

Results

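The 8 genes described here build and serve the glycine synapse. They are the 4 genes for the ligand-binding α subunits of the glycine receptor (Glra1, Glra2, Glra3 and Glra4), the gene for its β subunit (Glrb), the gene for the scaffold protein gephyrin (Gphn), and the genes for the plasma membrane glycine transporter GlyT1 (Slc6a9) and the vesicular inhibitory amino acid transporter (Slc32a1). They were chosen by gene symbol, and all 8 were found, once each, among the 32285 genes of the count matrices. Their levels were read in single nuclei of the retina, by cell class and at 2 ages of the mouse.

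Nuclei were isolated from retinas of wild-type C57BL6/J mice aged 18 months or 3 months and profiled by droplet single-nucleus RNA sequencing, with 3 libraries at each age. All mice carried the same genotype, no supplemented animals were analysed here, and age was the only difference between the groups that the labels gave. The labels did not state that the 3 libraries of an age came from separate animals, so the p-values below measure the spread between libraries, which may be technical. Counts are unique molecular identifiers (UMIs), each taken as 1 captured RNA molecule.

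In the retina glycine is released mostly by small-field amacrine cells, which take it up through GlyT1 and load it into vesicles through the carrier encoded by Slc32a1, which also carries GABA. The receptor is a chloride channel built from α and β chains. The α chain sets how fast the current decays, and the β chain binds gephyrin, which holds the receptor at the synapse. AII amacrine cells, a glycinergic type, carry rod signals to cone bipolar cells, inhibiting OFF cone bipolar cells through glycine and exciting ON cone bipolar cells through gap junctions.

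The 18-month libraries held 21453735 to 29340705 UMIs and the 3-month libraries 15905689 to 20364509 UMIs, with medians of 982 to 2343 and 1351 to 1824 UMIs per kept nucleus, and 50241 nuclei were kept, of which 30106 fell into 15 named classes. Library 18-month replicate 3 stood apart: 9823 of its 12789 nuclei lay in clusters that could not be named, and it held 122 rod nuclei, 21 OFF cone bipolar nuclei and 6 ON cone bipolar nuclei. Replicate 1 of each age was processed with release 7.1.0 of the counting software and the other 4 libraries with release 7.2.0. The median share of mitochondrial UMIs in kept nuclei lay between 1.1% and 1.35% in the 18-month libraries and between 1.52% and 2.52% in the 3-month libraries. Class names were rebuilt from marker genes, with the 8 genes kept out of the clustering and of the marker lists. In all, 10 classes had at least 20 nuclei in every library. ON cone bipolar and starburst amacrine nuclei did not, and as classes are given by level only. Starburst nuclei also entered the sum of all amacrine nuclei that was compared with ganglion nuclei. The AII amacrine name rested on 4 of 9 AII markers raised in 1 cluster, led by Spink13 and Dab1. Over all kept nuclei there were 3590 UMIs of Glra1, 4456 of Glra2, 7722 of Glra3, 505 of Glra4, 9692 of Glrb, 104801 of Gphn, 6963 of Slc6a9 and 5755 of Slc32a1.

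Levels below are CPM, the share of a class's UMIs in a library that came from the gene, scaled to a total of 1000000 and not corrected for gene length. They are compared between classes and not between genes. Differences between classes are descriptions with no test. The 325 microglial nuclei, a cell type not known for glycinergic synapses, served as a rough guide to the level that free RNA from other cells can give. Of these nuclei 160 came from 18-month replicate 3. For some genes other classes lay well below microglia: Glra2 averaged 1.63 CPM in cone nuclei, against 44.9 CPM summed in microglia. A class mean not above the microglial level is thus not shown to be free RNA. Gene positions are on mouse build GRCm38.

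Glra1 encodes the α subunit of fast glycine receptors, and was highest in OFF cone bipolar nuclei. It lies on chromosome 11 (55514238 to 55608198, minus strand). In OFF cone bipolar nuclei it stood at 431, 298 and 177 CPM in 18-month replicates 1, 2 and 3, against 260, 321 and 366 CPM in the 3-month replicates. Every one of these values was above every value of every other class with a level in all libraries. Rod bipolar nuclei came next, at 143, 117 and 94.1 CPM at 18 months and 131, 131 and 103 CPM at 3 months. Ganglion nuclei followed, at 30.2, 33.2 and 48.3 CPM at 18 months and 28.7, 35.0 and 35.1 CPM at 3 months. The OFF cone bipolar, rod bipolar and ganglion values did not overlap one another, while ganglion and Müller glia nuclei, the next in order with a mean of 30.9 CPM, did overlap. Cone nuclei were lowest, with a mean of 3.29 CPM over the 6 libraries.

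Within the cone bipolar cells, Glra1 was higher in the OFF than in the ON class. Summed over all libraries, the level was 312 CPM in OFF cone bipolar nuclei (exact Poisson 95% interval 279 to 348) and 44.8 CPM in ON cone bipolar nuclei (31.5 to 61.7), intervals that cover counting error only. By library, ON cone bipolar nuclei stood at 86.9, 46.5 and 0 CPM at 18 months and 29.3, 35.1 and 15.1 CPM at 3 months, each below the OFF value of the same library. The 0 came from the 6 nuclei of 18-month replicate 3. The 6 OFF subclusters held between 176 and 486 CPM and the 6 ON subclusters between 0 and 133 CPM, so the groups of subclusters did not overlap. Some of these names rested on a narrow margin among 14 markers of each kind. The subcluster at 486 CPM had 6 OFF and 5 ON markers raised. The one at 133 CPM had 6 ON and 5 OFF markers raised, and the one at 30.4 CPM 5 ON and 4 OFF. In the rest the margin was wider. In 18-month replicate 3, the library with the lowest OFF value, 13 of the 21 OFF nuclei lay in the subcluster at 176 CPM.

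OFF cone bipolar nuclei also came first, and rod bipolar nuclei next, when depth was made equal. After each nucleus was thinned to 1000 UMIs, with shallower nuclei left out, Glra1 was detected in 29% of 18-month and 25% of 3-month OFF cone bipolar nuclei (44.7% and 38.1% before thinning). In rod bipolar nuclei the thinned share was 11.3% at 18 months and 12.9% at 3 months (19.3% and 22.3% before thinning). ON cone bipolar nuclei reached 8.12% at 18 months and 2.38% at 3 months, and ganglion nuclei 2.62% and 2.14%. Microglia, at a median of 1159 UMIs at 18 months and 973 at 3 months against 1799 and 1713 in OFF cone bipolar nuclei, held no Glra1 UMI after thinning (171 and 21 nuclei). Summed microglial Glra1 was 7.18 CPM (1.96 to 18.4), under every value of the 3 leading classes.

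Ganglion nuclei were split in their Glra1. Cluster 15 of the 7 ganglion clusters, led by 6330411D24Rik, Ppp1r1c, Kcnd2 and Etv1, stood at 116, 110 and 148 CPM at 18 months and 108, 114 and 108 CPM at 3 months. Its values were near those of rod bipolar nuclei and above every value of the other 6 ganglion clusters, the highest of which was 56.5 CPM. Cluster 22 had no Glra1 UMI in 4 of the 6 libraries.

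**Figure D1:**
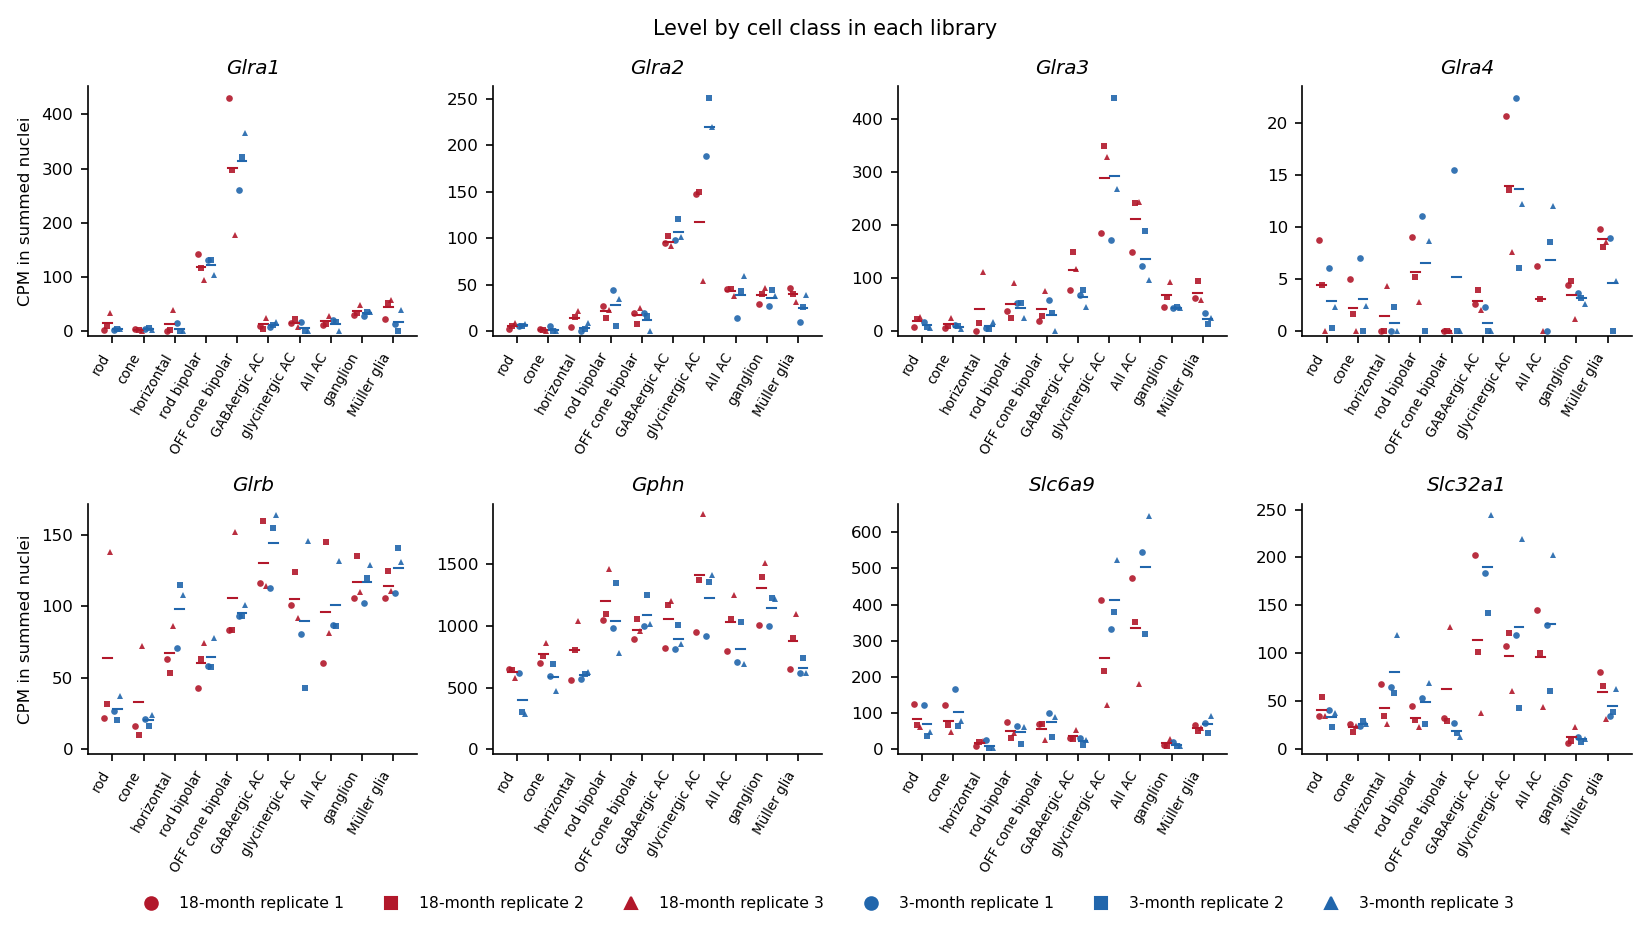
CPM of each of the 8 genes (y axes, one panel per gene with its own scale) in the 10 cell classes with enough nuclei in every library (x axis); each point is a library, 18-month libraries left of 3-month libraries, and short lines are means per age. Glra1 stands highest in OFF cone bipolar nuclei (177 to 431 CPM) and Slc6a9 in AII and glycinergic amacrine nuclei, while Glrb and Gphn are spread over all classes.

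Glra2, the α subunit of slower receptors and of embryonic ones, was highest in the amacrine classes. It lies on chromosome X (165129017 to 165327393, minus strand). In glycinergic amacrine nuclei it stood at 147, 150 and 53.5 CPM at 18 months, against 188, 251 and 219 CPM at 3 months. GABAergic amacrine nuclei held between 91.4 and 121 CPM in all 6 libraries. The low value of 18-month replicate 3 made the glycinergic and GABAergic ranges overlap, whereas the GABAergic values lay above every value of AII amacrine nuclei (mean 41.0 CPM) and ganglion nuclei (mean 37.4 CPM), which overlapped each other. Starburst amacrine nuclei, the cholinergic amacrine type, averaged 19.1 CPM. Summed microglial Glra2 was 44.9 CPM (29 to 66.2), or 9.53 CPM without 18-month replicate 3, so the AII and ganglion means were not above the microglial level when that library was counted.

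Glra3 encodes the α subunit of receptors with intermediate decay, and its class mean was also highest in glycinergic amacrine nuclei, through 1 of the 2 clusters of that class. It lies on chromosome 8 (55940460 to 56130070, plus strand). Its level in glycinergic amacrine nuclei was 186, 349 and 329 CPM at 18 months and 172, 440 and 268 CPM at 3 months. AII amacrine nuclei followed at 149, 242 and 244 CPM at 18 months and 123, 189 and 95.7 CPM at 3 months. GABAergic amacrine nuclei averaged 89.7 CPM and ganglion nuclei 56.1 CPM. In each of the 6 libraries the order was glycinergic, AII, GABAergic, ganglion, although the ranges of neighbours overlapped across libraries. Microglial Glra3 was 79.0 CPM (57.4 to 106) and 47.7 CPM without 18-month replicate 3, so the mean of the ganglion class as a whole was not above the microglial level.

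Among amacrine clusters, Glra3 was concentrated in a few. Cluster 31, led by Slc17a8, the vesicular glutamate transporter of a known glycinergic amacrine type, stood at 408, 721 and 424 CPM at 18 months and 560, 906 and 449 CPM at 3 months, above every value of the other 7 amacrine clusters. It held 296 of the 1050 glycinergic nuclei, and cluster 24, the other cluster of the class, averaged 140 CPM and lay below AII amacrine nuclei in 5 of 6 libraries. Within the GABAergic class, cluster 18, led by Maf, stood at 201, 330 and 244 CPM at 18 months and 155, 266 and 218 CPM at 3 months, whereas cluster 9 of the same class reached at most 37.5 CPM. The class mean of Glra3 in GABAergic amacrine nuclei thus covered a high cluster and a low one that did not overlap. Glra2 was spread differently: its highest means were in cluster 28 of the GABAergic class (150, 117 and 149 CPM at 18 months, 223, 368 and 175 CPM at 3 months) and in cluster 24 of the glycinergic class (150, 172 and 43.5 CPM at 18 months, 197, 323 and 185 CPM at 3 months). In both clusters the 3-month values were all above the 18-month values, with no test run by cluster.

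**Figure D2:**
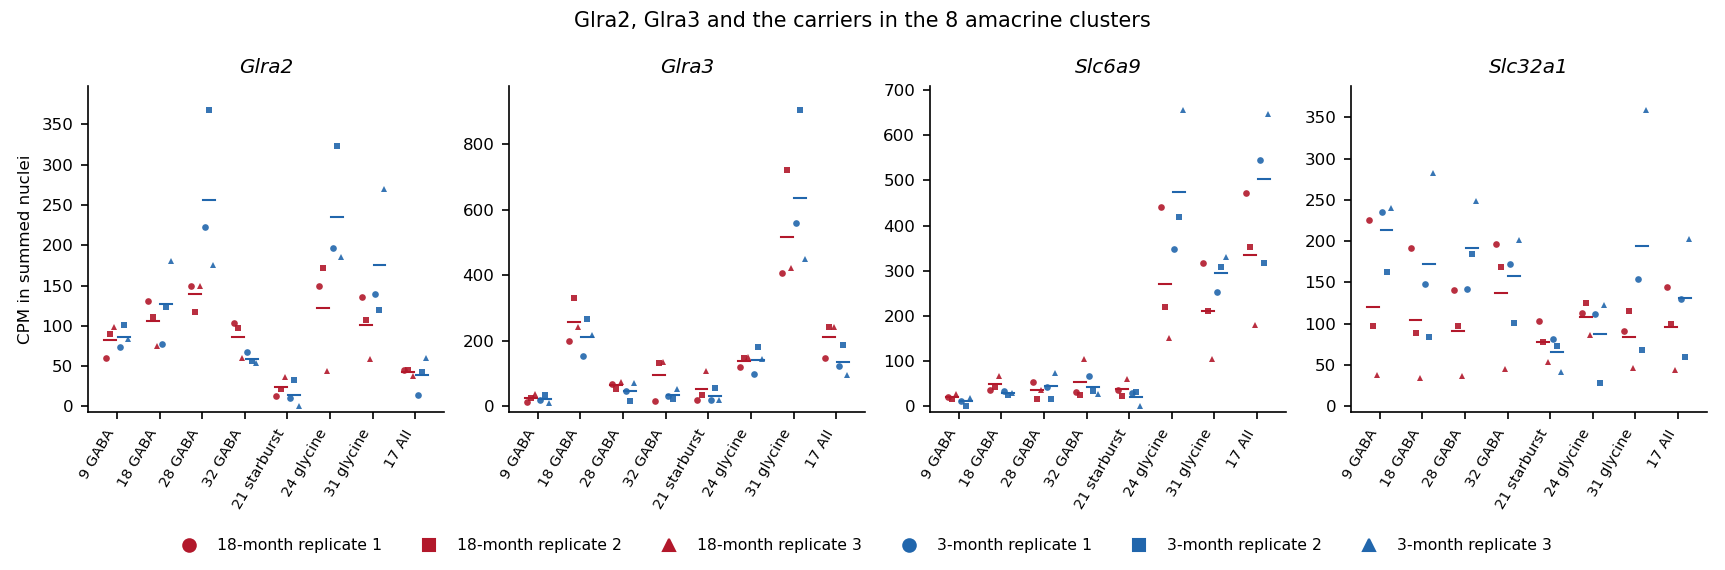
CPM of Glra2, Glra3, Slc6a9 and Slc32a1 (y axes) in the 8 amacrine clusters (x axis), one point per library, 18-month libraries left of 3-month libraries. Glra3 peaks in cluster 31 (408 to 906 CPM), Slc6a9 is high in clusters 17, 24 and 31, and Slc32a1 is present in all 8 clusters.

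The ganglion clusters also differed in Glra3. Cluster 29, led by Them7 and Sox6, stood at 137, 169 and 223 CPM at 18 months and 138, 170 and 144 CPM at 3 months. Cluster 26, led by Foxp2, stood at 95.2, 149 and 227 CPM at 18 months and 88.5, 78.4 and 72.9 CPM at 3 months, whereas the Glra1-high cluster 15 averaged 33.8 CPM of Glra3. Cluster 29 in every library lay above the upper bound of the microglial interval. Glra2 in ganglion nuclei was highest in cluster 27, led by Tfap2d and Gipr, at 82.2, 108 and 113 CPM at 18 months and 10.3, 114 and 63.4 CPM at 3 months, a spread that overlapped the other clusters.

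**Figure D3:**
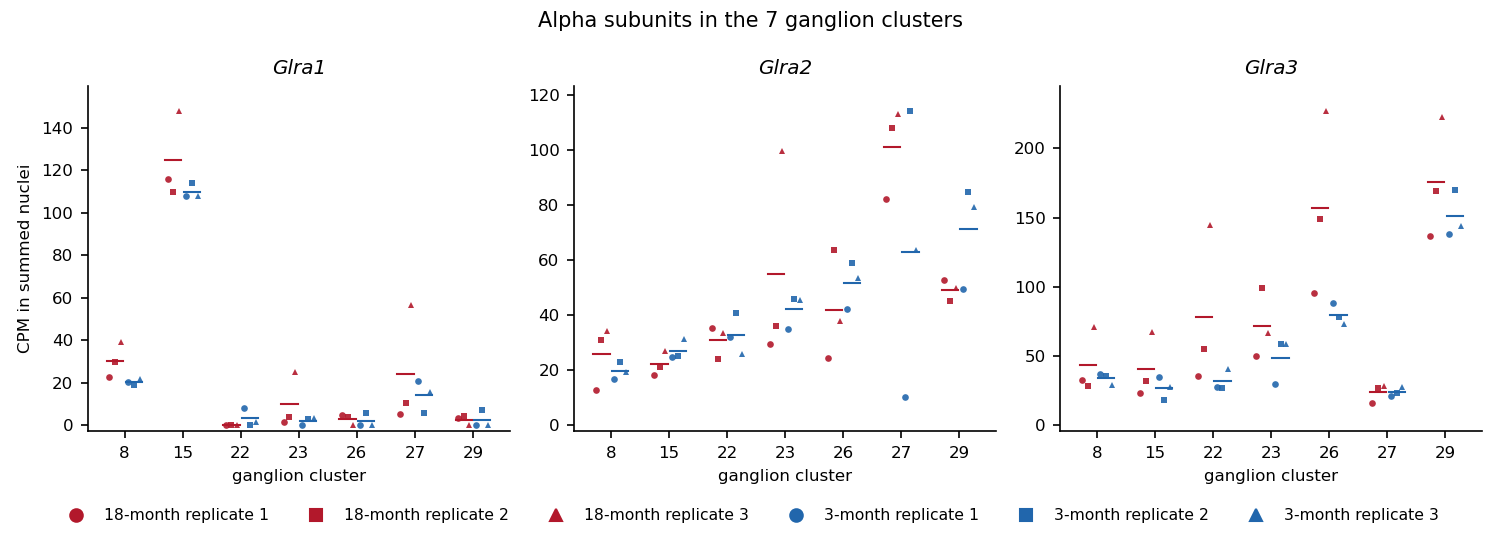
CPM of Glra1, Glra2 and Glra3 (y axes) in the 7 ganglion clusters (x axis), one point per library, 18-month libraries left of 3-month libraries. Glra1 is high in cluster 15 (108 to 148 CPM) and Glra3 in clusters 29 (137 to 223 CPM) and 26, so that the clusters high in one are low in the other.

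Glra4 was near the limit of detection. It encodes the fourth α subunit, lies on chromosome X (136757674 to 136780141, minus strand) and gave 505 UMIs in 107890293 over all kept nuclei. Glycinergic amacrine nuclei were highest at 20.6, 13.5 and 7.64 CPM at 18 months and 22.4, 6.11 and 12.2 CPM at 3 months. Starburst amacrine nuclei were close, with a mean of 13.4 CPM, and no other class averaged above 6.70 CPM. ON cone bipolar nuclei held no Glra4 UMI. The microglial level, from 4 UMIs, was 7.18 CPM (1.96 to 18.4), and no class mean lay above that interval, so at this depth no class was set apart from microglia. Summed over libraries, the intervals of glycinergic (10.8 to 22.5) and starburst nuclei (7.65 to 17.5) lay above those of GABAergic amacrine (1.32 to 3.62) and ganglion nuclei (2.73 to 4.37). These cover counting error only. Of the 31 glycinergic UMIs, 29 lay in cluster 24, which averaged 20.3 CPM. Cluster 31 averaged 1.28 CPM.

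Glrb, the β subunit that anchors the receptor, was counted in every class with no clear step between neighbours. It lies on chromosome 3 (80843599 to 80913660, minus strand). Starburst amacrine nuclei, given by level only and outside the order that follows, averaged 145 CPM. GABAergic amacrine nuclei stood at 116, 160 and 114 CPM at 18 months and 113, 155 and 164 CPM at 3 months. Müller glia averaged 121 CPM, ganglion nuclei 117 CPM and OFF cone bipolar nuclei 101 CPM. AII amacrine nuclei averaged 98.6 CPM, glycinergic amacrine nuclei 97.6 CPM, horizontal nuclei 82.7 CPM and rod bipolar nuclei 62.3 CPM. Rod nuclei averaged 46.0 CPM and cone nuclei 26.6 CPM, the lowest, or 27.5 and 17.5 CPM without 18-month replicate 3, which stood highest in both. Every class overlapped its neighbour in this order, and the microglial level was 73.6 CPM (52.8 to 99.8). The means from AII amacrine nuclei down thus lay within or below the microglial interval, and those of GABAergic amacrine, Müller glia and ganglion nuclei lay above it in every library. Without 18-month replicate 3 the microglial level was 47.7 CPM (26.7 to 78.6), and the means of AII (102 CPM), glycinergic (98.8 CPM) and horizontal nuclei (82.1 CPM) then lay above it. Of the 50-base words in the annotated Glrb transcripts, 2.46% also occurred in another gene, and the other 7 genes shared none, so Glrb counts carry a small uncertainty of assignment.

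Gphn was the most counted of the genes. Gephyrin holds glycine and GABA type A receptors at synapses and also makes the molybdenum cofactor in cells without such synapses. Its gene lies on chromosome 12 (78226379 to 78684772, plus strand), spans 458 kb and overlaps 6 other gene models, 3 of them on the same strand. Glycinergic amacrine nuclei stood at 951, 1370 and 1910 CPM at 18 months and 918, 1360 and 1410 CPM at 3 months. Ganglion nuclei averaged 1230 CPM, rod bipolar nuclei 1120 CPM, OFF cone bipolar nuclei 1030 CPM, GABAergic amacrine nuclei 976 CPM and AII amacrine nuclei 921 CPM. Müller glia averaged 771 CPM, horizontal nuclei 704 CPM, cone nuclei 680 CPM and rod nuclei 514 CPM. Neighbours in the order overlapped. Starburst amacrine nuclei, given by level only, averaged 1390 CPM. Within the glycinergic class cluster 31 averaged 1940 CPM and cluster 24 averaged 999 CPM. In ganglion clusters the highest values were those of cluster 23, led by Bnc2, at 1300, 1870 and 1910 CPM at 18 months and 1290, 1730 and 1580 CPM at 3 months. The microglial level was 801 CPM (728 to 878), or 553 CPM without 18-month replicate 3.

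Slc6a9 was highest in the glycinergic amacrine classes. GlyT1, which it encodes, takes glycine back from the extracellular space. Its gene lies on chromosome 4 (117834506 to 117875198, plus strand) and overlaps B4galt2 and Ccdc24 on the other strand. AII amacrine nuclei stood at 473, 352 and 180 CPM at 18 months and 545, 318 and 646 CPM at 3 months. The other glycinergic amacrine nuclei stood at 412, 217 and 122 CPM at 18 months and 333, 379 and 523 CPM at 3 months. The low end of both ranges was 18-month replicate 3, and the classes overlapped. Apart from that library, every AII and glycinergic value was above every value of the other classes. Cone nuclei averaged 90.7 CPM and rod nuclei 76.4 CPM, GABAergic amacrine nuclei 29.4 CPM and ganglion nuclei 14.5 CPM. The microglial level was 71.8 CPM (51.3 to 97.8). AII and glycinergic values lay above that interval in every library, and ganglion values below it in every library.

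With depth made equal at 1000 UMIs, Slc6a9 was detected in 26.3% of AII amacrine nuclei at 18 months and 36.2% at 3 months (41.5% and 60.5% before thinning). In the other glycinergic amacrine nuclei the thinned share was 25.5% at 18 months and 29.7% at 3 months (37.6% and 40.9% before thinning). GABAergic amacrine nuclei had a UMI in 3.91% and 2.45%, ganglion nuclei in 1.36% at both ages, and microglia in 7.02% at 18 months and 0 of 21 nuclei at 3 months. The AII and glycinergic shares thus stood above the microglial share, and the GABAergic and ganglion shares below it at 18 months. Within the GABAergic class no cluster exceeded 105 CPM, whereas the glycinergic clusters 24 and 31 averaged 373 and 254 CPM.

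Slc32a1 was spread over all amacrine classes, GABAergic and glycinergic. The carrier loads GABA and glycine into synaptic vesicles. Its gene is the shortest of the 8 at 4.98 kb and lies on chromosome 2 (158610767 to 158615748, plus strand). GABAergic amacrine nuclei stood at 203, 101 and 37.4 CPM at 18 months and 184, 142 and 244 CPM at 3 months. AII amacrine nuclei averaged 114 CPM and glycinergic amacrine nuclei 112 CPM, and the 3 ranges overlapped. Starburst amacrine nuclei averaged 72.0 CPM and horizontal nuclei, which also use GABA, 61.8 CPM. Ganglion nuclei, which use glutamate, were lowest at a mean of 11.6 CPM. In 6 of the 8 amacrine clusters 18-month replicate 3 was the lowest of the 6 libraries. The microglial level was 46.7 CPM (30.5 to 68.4).

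The genes whose pattern was most like each member were ranked by Pearson r of log2(CPM + 1) over 77 points, each a class in a library, among 11643 genes. The points share libraries, depth and the rebuilt classes, so r is a description. Among the genes most like Glra1 were Epha3 (r = 0.747) and Zfp804b (0.743). Glra2 was most like Asic2 (0.801), Antxr1 (0.799) and Greb1l (0.796), and its r with Glra3 was 0.771. Glra3 was most like Necab1 (0.804), Dab1 (0.799) and Kcnq3 (0.792), of which Dab1 was among the genes used to name amacrine classes. Glra4 reached lower values, with Shb (0.601), Plpp4 (0.552) and Camk2a (0.550). Glrb was most like Ctnnd2 (0.845), Adgrl3 (0.836) and Mmp16 (0.817), and Gphn like Stxbp5l (0.825), Mbd5 (0.798) and Adgrb3 (0.787). Slc6a9 was most like Ccdc24 (0.784), the gene that overlaps it on the other strand, followed by Kirrel (0.769) and Shisa6 (0.738). Slc32a1 was most like Tfap2b (0.768), Tfap2a (0.697) and Zfp385c (0.658), the transcription factors Tfap2a and Tfap2b being among the genes used to name amacrine nuclei.

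The 2 ages were compared in each class by edgeR's quasi-likelihood test on UMIs summed per library, with age as the only term, and p-values were adjusted by the Benjamini-Hochberg method over all genes tested in that class. Of the 80 pairs of a gene and a class, 55 had enough counts to be tested: Glrb and Gphn in 10 classes, Slc32a1 in 9, Slc6a9 in 8, Glra3 in 7, Glra1 and Glra2 in 5 and Glra4 in 1. None of the 55 was called at an adjusted p of 0.05, and the lowest adjusted p was 0.624. Neither was any other gene: the share of all genes called was 0% in each of the 10 classes, from 3200 genes tested in OFF cone bipolar nuclei to 13822 in ganglion nuclei. DESeq2 gave an adjusted p to 50 of the pairs and called 0 of them, with 3 under an unadjusted p of 0.05, and called 45 genes over all classes. At an unadjusted p of 0.05 edgeR passed 4 of the 55 pairs, 7.27%, against 2.88% of all genes and classes. Estimates at 18 months were above 0 in 30 pairs and below 0 in 25, with a median log2 difference of 0.06, and the medians of all genes lay between -0.04 and 0.02 by class.

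Values for the ages below are CPM normalised by the trimmed mean of M values (TMM). Glra1 in OFF cone bipolar nuclei stood at 568, 394 and 229 normalised CPM at 18 months, against 346, 436 and 484 normalised CPM at 3 months. The ages overlapped, with the highest and the lowest value both at 18 months. The log2 difference was -0.003 ± 0.372 (SE, n = 3 libraries per age; edgeR quasi-likelihood, adjusted p = 1). Glra2 in glycinergic amacrine nuclei stood at 165, 170 and 61.1 normalised CPM at 18 months, against 215, 291 and 247 normalised CPM at 3 months. Here the ages did not overlap and all 18-month values were lower. The log2 difference was -0.82 ± 0.35 (SE, n = 3 per age; edgeR unadjusted p = 0.0354, adjusted p = 1), and it did not pass the test. The lowest value was that of 18-month replicate 3. In cluster 31 of the class the ages overlapped, at 136, 107 and 58.9 CPM at 18 months and 140, 120 and 270 CPM at 3 months. Glra3 in the same nuclei overlapped between ages, at 208, 396 and 375 normalised CPM at 18 months and 197, 511 and 302 normalised CPM at 3 months, with a log2 difference of -0.03 ± 0.38.

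Glrb in GABAergic amacrine nuclei stood at 112, 168 and 119 normalised CPM at 18 months and 111, 166 and 169 normalised CPM at 3 months, overlapping values with a log2 difference of -0.15 ± 0.25. Gphn in glycinergic amacrine nuclei stood at 1070, 1560 and 2180 normalised CPM at 18 months and 1050, 1570 and 1590 normalised CPM at 3 months, a log2 difference of 0.19 ± 0.30. The replicate 1 libraries, of the earlier software release, were the lowest of each age. Across classes, the Gphn estimate was above 0 in 9 of 10 classes (-0.20 to 0.43) and the Glrb estimate below 0 in 8 of 10 (-0.75 to 0.52), with no class passing the test for either. The classes share the same libraries, so these estimates are not independent. Without 18-month replicate 3 the Gphn estimates ran from -0.17 to 0.51, and the one in glycinergic amacrine nuclei was also below 0 (-0.10).

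No transporter pair passed the test. Slc6a9 had an estimate above 0 in 4 of its 8 tested classes and Slc32a1 in 3 of 9. The estimate was below 0 in the 3 pairs described next. Slc6a9 in AII amacrine nuclei stood at 501, 392 and 194 normalised CPM at 18 months, against 593, 361 and 716 normalised CPM at 3 months. The ages overlapped through 18-month replicates 1 and 2, and the log2 difference was -0.62 ± 0.38. Slc32a1 in GABAergic amacrine nuclei stood at 196, 106 and 39.0 normalised CPM at 18 months, against 180, 152 and 252 normalised CPM at 3 months, and the log2 difference was -0.72 ± 0.44. Slc32a1 in horizontal nuclei stood at 74.6, 37.6 and 25.5 normalised CPM at 18 months, against 71.4, 73.6 and 145 normalised CPM at 3 months (log2 difference -1.13, edgeR unadjusted p = 0.0358). The 12 horizontal markers summed in these nuclei to 13400, 9340 and 3490 CPM at 18 months, against 11800, 11300 and 11900 CPM at 3 months. The 9 rod bipolar markers summed to 440 to 1190 CPM at 18 months and 191 to 317 CPM at 3 months, and the 14 ON cone bipolar markers to 430 to 1910 CPM at 18 months and 259 to 588 CPM at 3 months, both highest in 18-month replicate 3. The part of these values in the difference was not tested. In all 3 transporter pairs 18-month replicate 3 held the lowest value. Glra4 could be tested in ganglion nuclei alone, at 4.23, 5.02 and 1.15 normalised CPM at 18 months and 3.51, 3.40 and 2.75 normalised CPM at 3 months, with a log2 difference of 0.33 ± 0.44.

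**Figure D4:**
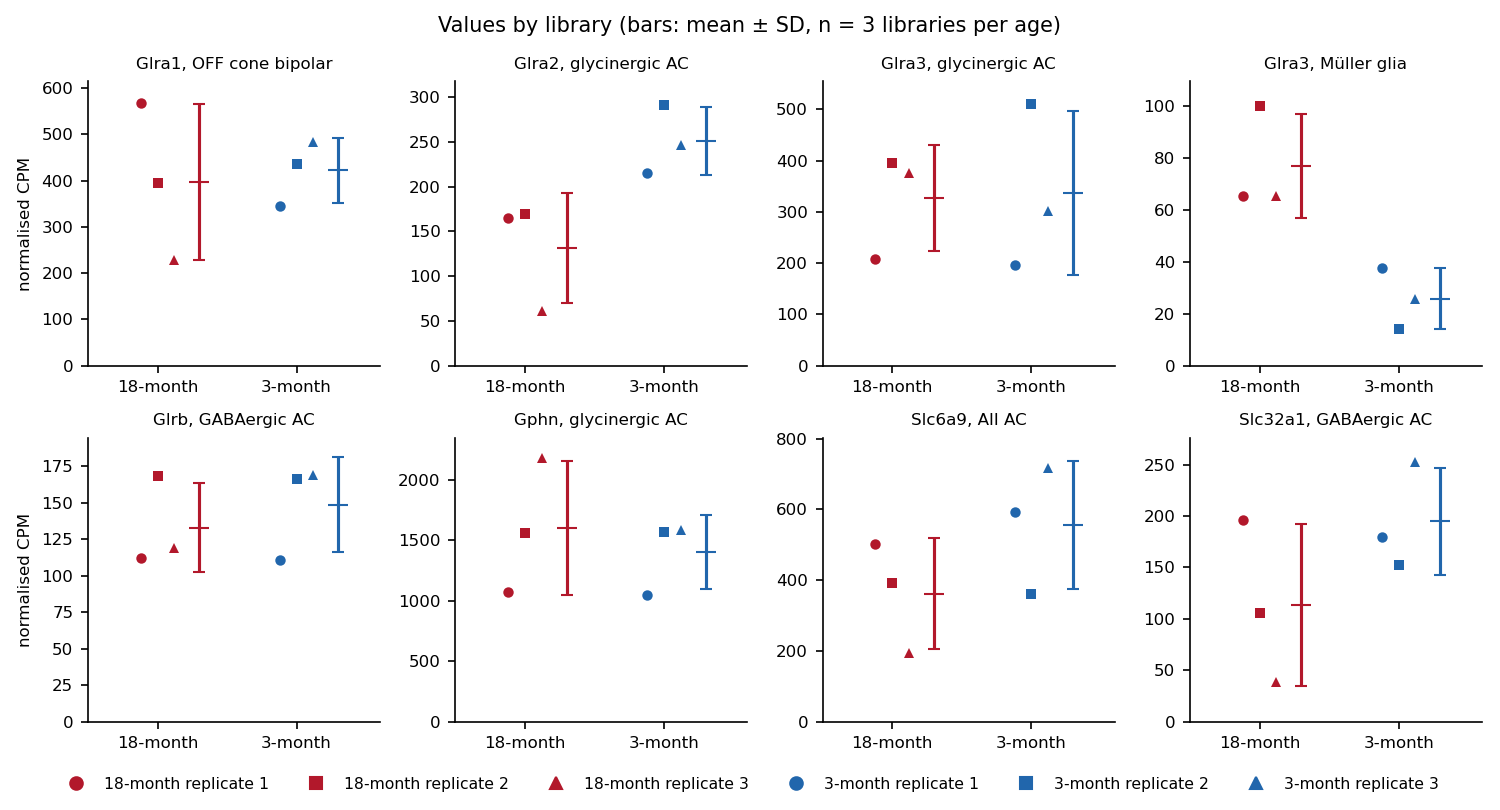
Normalised CPM (y axes) in 18-month libraries, left, and 3-month libraries, right, for 8 pairs of a gene and a class; points are libraries, and bars are mean ± SD (n = 3 per age). The ages do not overlap for Glra2 in glycinergic amacrine nuclei (61.1 to 170 against 215 to 291) and for Glra3 in Müller glia (65.1 to 99.8 against 14 to 37.5), and overlap in the other pairs.

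Glra3 in Müller glia nuclei was the other pair whose ages did not overlap, and the one pair called when the release term was added. Müller glia are the radial glia of the retina. Glra3 stood there at 65.1, 99.8 and 65.4 normalised CPM in the 18-month libraries, against 37.5, 14 and 25.8 normalised CPM in the 3-month libraries. Every 18-month value was above every 3-month value. With age alone the log2 difference was 1.42 ± 0.41 (SE, n = 3 per age; edgeR unadjusted p = 0.00527, adjusted p = 0.624), which did not pass. With the software release as a second term it was 1.37 ± 0.36 (edgeR adjusted p = 0.0177), and, without 18-month replicate 3, 1.42 with that term (adjusted p = 0.0162), both of which passed. With the release term 2.53% of all genes were called in Müller glia.

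Values of other cell types moved with age in the same nuclei. In Müller glia the summed level of the 12 amacrine markers, none of them at 0, was 2080 to 2290 CPM at 18 months and 1590 to 2150 CPM at 3 months. Of the narrower lists, the 7 GABAergic amacrine markers summed to 814 to 978 CPM at 18 months and 544 to 722 CPM at 3 months, with no overlap, and the 14 glycinergic amacrine markers to 2020 to 2200 CPM at 18 months and 1540 to 2040 CPM at 3 months. The 9 AII amacrine markers overlapped, at 2100 to 2670 CPM at 18 months and 1650 to 2820 CPM at 3 months. Outside the amacrine lists, the 14 OFF cone bipolar markers summed to 2060 to 2490 CPM at 18 months and 1300 to 1730 CPM at 3 months. The 12 horizontal markers summed to 567 to 808 CPM at 18 months and 430 to 531 CPM at 3 months. Neither list overlapped between ages, whereas the rod bipolar, ON cone bipolar, ganglion and cone sums did. The 10 rod markers summed to 6190 to 9010 CPM at 18 months and 13600 to 17600 CPM at 3 months, and the 13 markers of Müller glia itself to 4030 to 7110 CPM at 18 months and 6080 to 7120 CPM at 3 months. Microglial Glra3 was 78.0 CPM (55.2 to 107) at 18 months and 85.9 CPM (31.5 to 187) at 3 months. Each interval covers every 18-month Müller value before normalisation (59.8 to 95.6 CPM). Without 18-month replicate 3, the 18-month microglial level was 36.8 CPM (16.8 to 69.8), from 9 UMIs. The summed 18-month Müller level was then 88.4 CPM (76.8 to 101), with no overlap of the intervals. By library, the Müller value of 18-month replicate 1 (62.6 CPM) lay within that microglial interval, and the highest (95.6 CPM) lay above it. After thinning to 1000 UMIs, 5.46% of 18-month and 2.53% of 3-month Müller nuclei held a Glra3 UMI (11% and 4.32% before thinning). The thinned microglial shares were 6.43% of 171 nuclei at 18 months and 9.52% of only 21 nuclei at 3 months. The part of these values in the difference was not tested. The remaining pair under an unadjusted p of 0.05 was Glra3 in GABAergic amacrine nuclei, at 74.5, 157 and 124 normalised CPM at 18 months and 67.7, 82.9 and 47.5 normalised CPM at 3 months. The log2 difference was 0.84 (edgeR quasi-likelihood, unadjusted p = 0.0261, adjusted p = 0.999). Its ages overlapped, and Glra3 had an estimate above 0 in 6 of its 7 tested classes. The clusters of the class were unequally filled: the Glra3-high cluster 18 held 221, 320 and 124 of the GABAergic nuclei at 18 months and 219, 72 and 77 at 3 months, and the Glra3-low cluster 9 held 287, 282 and 160 at 18 months and 218, 180 and 306 at 3 months. Within cluster 18 Glra3 averaged 258 CPM at 18 months and 213 CPM at 3 months, and within cluster 9 it averaged 25.9 CPM at 18 months and 22 CPM at 3 months. The smaller clusters 28 and 32 held 48 Glra3 UMIs each. Cluster 28 averaged 65.1 CPM at 18 months and 45.7 CPM at 3 months, and cluster 32 averaged 94.6 CPM and 35.6 CPM, with ages that overlapped in both. In the GABAergic nuclei the 14 glycinergic amacrine markers (1 at 0) summed to 430, 579 and 1200 CPM at 18 months and 522, 393 and 333 CPM at 3 months. The 9 AII markers summed to 303, 464 and 816 CPM at 18 months and 359, 221 and 253 CPM at 3 months. The part of these values in the difference was not tested.

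With the release term, the share of all genes called was 11.3% in rod, 0.11% in cone, 0.0312% in OFF cone bipolar and 0.168% in glycinergic amacrine nuclei, and 0% in rod bipolar, GABAergic amacrine, AII amacrine, horizontal and ganglion nuclei. Glra3 in Müller glia was the only member called in that fit, and 10 pairs, 18.2%, had an unadjusted p under 0.05, against 10.7% of all genes and classes. Some members stood apart in the replicate 1 libraries, which are also those of the earlier release. These 2 differ from the rest in their clusters too: cone cluster 14 held 495 and rod cluster 10 held 995 nuclei of 18-month replicate 1, against 537 and 357 of 3-month replicate 1 and at most 7 and 59 of any other library. The software release and other features of these libraries cannot be told apart. Slc6a9 in rod nuclei stood at 118, 64.9 and 52.3 normalised CPM at 18 months and 118, 47.7 and 52.9 normalised CPM at 3 months, the 2 libraries of the earlier release being the highest. Gphn in ganglion nuclei stood at 948, 1470 and 1510 normalised CPM at 18 months and 951, 1330 and 1260 normalised CPM at 3 months, the same 2 libraries being the lowest. Since each release held libraries of both ages, age and release could be fitted together.

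**Figure D5:**
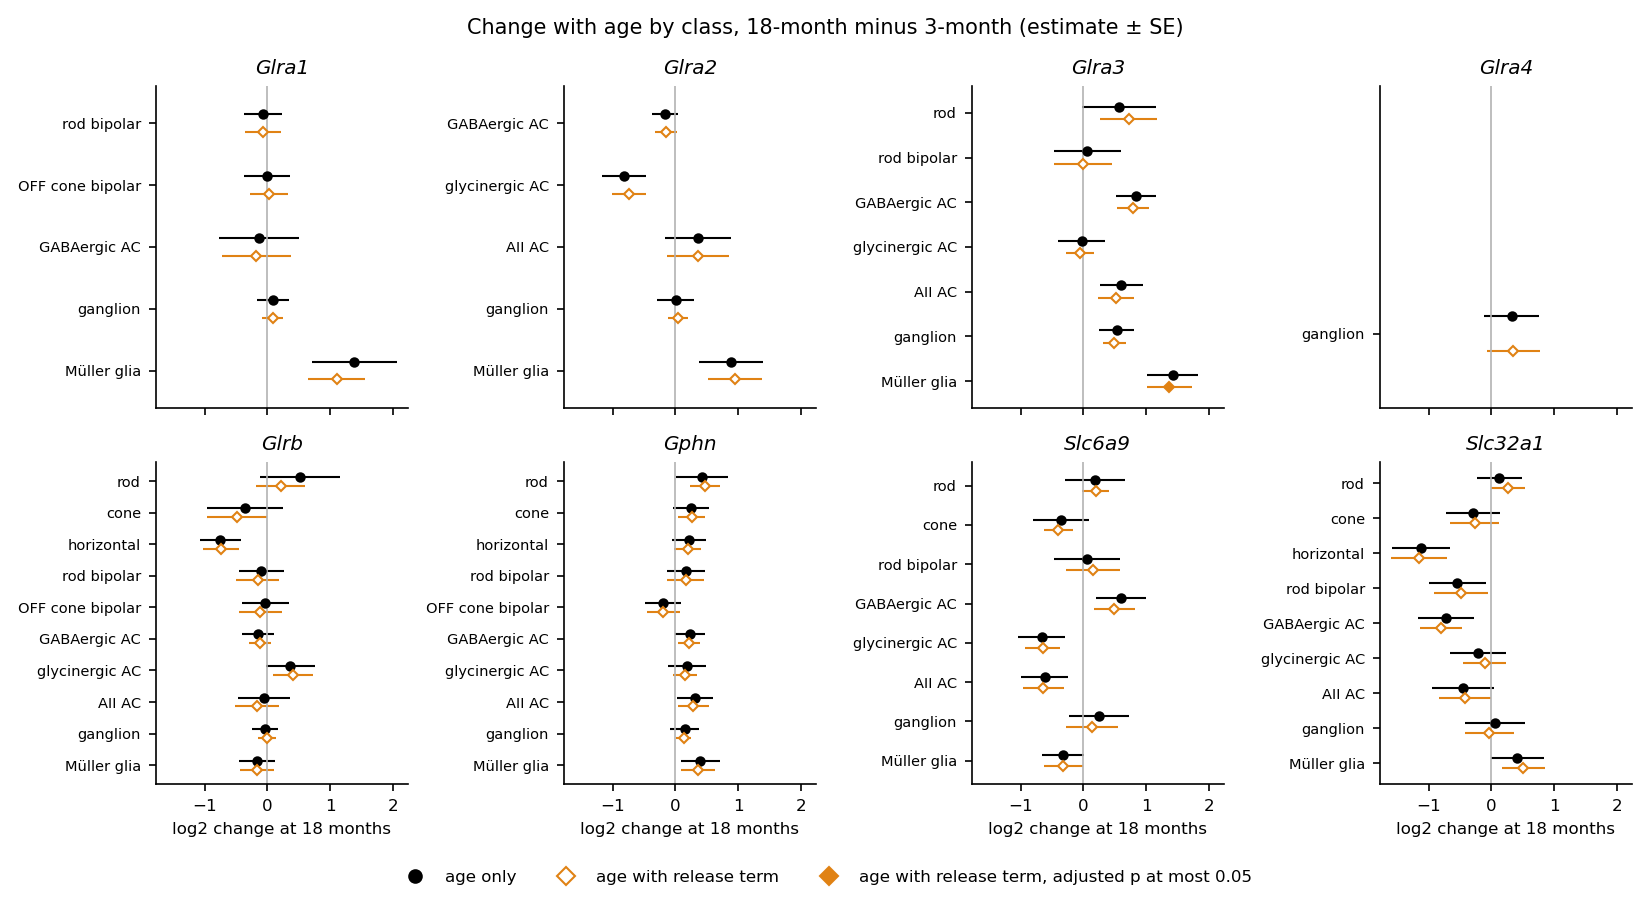
Log2 change at 18 months relative to 3 months (x axis, with SE bars, n = 3 libraries per age) for each tested pair of a gene and a class (y axis); black circles are the fit with age alone and orange diamonds the fit with a release term, filled where the adjusted p was at most 0.05. The single filled point is Glra3 in Müller glia with the release term (1.37).

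Whether the age difference of a member was the same in amacrine and in ganglion nuclei was tested by an interaction term over both. The amacrine sum joined GABAergic, glycinergic, AII and starburst nuclei, whose mix differed between libraries. AII and starburst nuclei numbered 424 and 365 in 18-month replicate 3, against 48 and 19 in 3-month replicate 3. The share of genes called was 0% (0 of 14380, with 583 under an unadjusted p of 0.05 by edgeR), and no member was called. The smallest member p was that of Glra2, whose log2 difference was lower in amacrine than in ganglion nuclei by -0.44 ± 0.24 (unadjusted p = 0.0817, adjusted p = 1). Glra2 averaged 168 CPM in glycinergic and 101 CPM in GABAergic nuclei, against 41.0 CPM in AII and 19.1 CPM in starburst nuclei. The part of the mix of amacrine nuclei in the Glra2 value was not tested.

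Further genes of the glycine and inhibitory synapse were followed in 6 lists of 78 genes, of which 67 could be tested in at least 1 class, giving 416 pairs of a gene and a class. With age alone edgeR called 0 of the 416 pairs, against 0% of all genes, and 16 had an unadjusted p under 0.05. The release term called 5 pairs, 1.2%, against 1.86% of all genes and classes in the same fit. In Müller glia it called Iqsec3, an inhibitory postsynaptic exchange factor that binds gephyrin, at 153, 138 and 147 CPM at 18 months and 85.7, 51.4 and 68.1 CPM at 3 months (log2 difference 1.01, edgeR adjusted p = 0.0342). It also called Mdga2, which restrains neuroligin adhesion, at 1460, 2240 and 2920 CPM at 18 months and 884, 1060 and 1130 CPM at 3 months (1.04, edgeR adjusted p = 0.0312). Both were higher at 18 months with no overlap between ages, and neither passed with age alone. In the same Müller nuclei the GABAergic amacrine, OFF cone bipolar and horizontal marker sums were also higher at 18 months without overlap, as given above. The rod sum was lower there, and the other neuronal sums overlapped. The part of these values in the 2 differences was not tested. In rod nuclei Nlgn1, a neuroligin best known from excitatory synapses, was called higher (1.20, edgeR adjusted p = 0.0409), at 71.3, 166 and 346 CPM at 18 months and 83.4, 49.8 and 45.7 CPM at 3 months, ages that overlapped.

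The 2 list pairs called lower were both vesicle release genes. Cplx4, a complexin of retinal ribbon synapses, stood in Müller glia at 135, 190 and 147 CPM at 18 months and 205, 328 and 554 CPM at 3 months (log2 difference -1.15, edgeR adjusted p = 0.00498 with the release term). Vamp2, the synaptic vesicle SNARE protein, stood in rod nuclei at 98.9, 216 and 190 CPM at 18 months and 146, 296 and 266 CPM at 3 months (log2 difference -0.74, edgeR adjusted p = 0.0432 with the release term), with the ages overlapping. The rod class was made of different clusters at each age. Cluster 1 held 4475 rod nuclei at 18 months and 1619 at 3 months, cluster 4 held 407 and 2122, and cluster 13 held 22 and 1066. Whether this accounts for the rod values of Nlgn1 and Vamp2 was not tested. Cplx4 is known as a photoreceptor gene, and the rod marker sum in the same Müller nuclei was lower at 18 months, as given above; its part in this value was not tested.

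By list, the median log2 difference with age alone was 0.08 over 132 pairs of postsynaptic scaffold and adhesion genes, 76 of them above 0. It was 0.04 over 126 pairs of transmitter synthesis and release genes, 69 of them above 0. The other 4 lists had medians below 0. These were -0.09 over 13 pairs of molybdenum cofactor genes (6 above 0), -0.07 over 63 pairs of other glycine and amino acid carriers (30 above 0), -0.18 over 29 pairs of glycine synthesis and cleavage genes (10 above 0) and -0.09 over 53 pairs of chloride carriers (19 above 0).

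Genes with the highest level of their list in amacrine and ganglion nuclei are given here by their ganglion values with age alone, none of which passed the test (edgeR adjusted p = 1 for each). Mdga2 averaged 4820 CPM at 18 months and 4400 CPM at 3 months, and Nlgn1 2090 CPM and 1880 CPM. Of the molybdenum cofactor genes, Mocs2 averaged 21.5 CPM at both ages, and Mocs1 4.98 CPM at 18 months and 4 CPM at 3 months. Of the other amino acid carriers, Slc38a2, a neutral amino acid transporter, averaged 164 CPM at 18 months and 184 CPM at 3 months. In the glycine cleavage system, Dld averaged 44.8 CPM at 18 months and 46.5 CPM at 3 months, and Amt 25 CPM and 15.1 CPM. Slc12a5, the neuronal chloride extruder KCC2, averaged 258 CPM at 18 months and 304 CPM at 3 months, and the chloride exchanger Clcn3 192 CPM and 190 CPM. The vesicle genes Syt1 and Snap25 averaged 2890 CPM and 1260 CPM at 18 months and 2670 CPM and 1070 CPM at 3 months.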

How the data were processed

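Single-nucleus RNA was measured in 6 retina libraries. Per the submitters' processing notes, Cell Ranger, build mm10 and Seurat were used. The authors deposited UMI counts per gene and barcode, not normalised; per the file headers, replicate 1 of each age came from release 7.1.0 and the rest from 7.2.0. The files held 62893 barcodes, of at least 500 UMIs; 11 to 74 barcodes were shared by a library pair (0.17% to 0.506% of the smaller). Nuclei with under 300 genes or over 5% mitochondrial UMIs were removed (41.9% of the barcodes of 3-month replicate 1 by the mitochondrial limit), then those of highest Scrublet doublet score, 0.8% per 1000 nuclei, since the Scrublet threshold called almost none, leaving 50241. Clustering used scanpy 1.11.5 on 2000 variable genes without the 8 members (Leiden resolution 1.0, 37 clusters), and clusters were named from marker lists or left unnamed (9 clusters, 20135 nuclei). Another naming of the same nuclei could move these levels.

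UMI counts deposited by the authors were summed per library and class and tested with edgeR 4.0.16 (R 4.3.3; TMM, filterByExpr, quasi-likelihood, classes with 20 nuclei or more in every library, adjusted p of at most 0.05). DESeq2 1.42.0 was an alternative. The fit was tried on simulated counts of ganglion and AII amacrine nuclei, already cut to genes that pass the edgeR filter. Their spread between libraries was set below that of the data, so the trial does not show what the fit can find in these data. Intervals are exact Poisson at 95%, covering counting error only. Named age values are those of each member in the tested class of its highest level, and of any pair called with or without the release term. List genes are named if called, and otherwise as the 2 highest of a list. The 3 most similar genes per member needed a mean of at least 5 CPM. Some genes that these rules name are not reported here. Members and lists were chosen with earlier results of these data known. Deviations of same-numbered libraries correlated, by class, at 0.32 to 0.66 for replicates 1, 0.13 to 0.52 for replicates 2 and 0 to 0.2 for replicates 3. The correlation was over 0.1 in every pair in only 3 of 10 classes, so the main fit did not take the numbers as pairs. A replicate block was an alternative. It lowered edgeR's common coefficient of variation between libraries, from 0.333 to 0.194 in Müller glia and from 0.254 to 0.158 in ganglion nuclei. Coordinates are those of the GENCODE annotation supplied for GRCm38.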

Additional observations from a re-analysis of the deposited data

Results flagged for a closer look

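The clusters that could not be named were not part of the comparisons. Levels of the 8 members in these 9 clusters were summed over the 6 libraries. Of them, 19 had an exact Poisson 95% interval wholly above the microglial interval of the same gene. Clusters 0 and 2 were mostly nuclei of 18-month replicate 3, whereas the microglial intervals were taken over all 6 libraries. With that library left out, microglial Gphn fell from 801 to 553 CPM and microglial Glra3 from 79.0 to 47.7 CPM. Clusters 0 and 2 were not compared with microglia of that library alone. Cluster 0 held Glra1 at 32.3 CPM and Gphn at 1030 CPM, and cluster 2 held Glra1 at 45.2 CPM, Glra3 at 132 CPM and Gphn at 1490 CPM. Cluster 3 held Glra1 at 48.7 CPM and Slc32a1 at 80.1 CPM, and cluster 5 held Glra1 at 23.1 CPM. Cluster 6, with 9 ganglion markers raised, held Glra1 at 25 CPM, Glrb at 113 CPM and Gphn at 912 CPM. Cluster 11, led by Cyp2j8 and Erbb4, with 6 amacrine markers raised, held Glra1 at 58.9 CPM, Glra2 at 97.9 CPM, Glra3 at 222 CPM, Glrb at 140 CPM, Gphn at 1020 CPM and Slc32a1 at 152 CPM. Cluster 12 held Glra1 at 48.2 CPM and Slc6a9 at 119 CPM. No class was given to these nuclei, and what they are was not tested.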

How the results depend on the processing

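Member pairs called numbered 0 with age alone, 1 with the release term, 1 with the replicate block, 3 in the 4 libraries of the later release (Glra3 in rod and Müller glia nuclei, Slc32a1 in horizontal nuclei) and 1 with the release term and 18-month replicate 3 left out, a setting chosen after seeing the data. The list counts and interaction settings were added likewise. In the 4 later libraries the share of all genes called was 18.5% in rod, 3.88% in horizontal and 2.03% in Müller glia nuclei. In Müller glia it was 2.38% with the replicate block and 1.66% with the release term without 18-month replicate 3. Genes called over all classes numbered 1498 with the release term, 890 with the replicate block, 312 with no filter on low counts, 45 with DESeq2, 2655 in the 4 later libraries, 465 at the other cluster resolution and 1640 with the release term without 18-month replicate 3. Leaving out 1 library gave 0 to 121 genes, 121 without 18-month replicate 1 and 9 without 3-month replicate 1, and 0 member pairs. List pairs called were 5 with the release term, 2 with the replicate block, 10 in the 4 later libraries, 1 at the other resolution, 4 with the release term without 18-month replicate 3, and 0 to 1 with 1 library left out. The interaction called no member in any setting, and 2 other genes without 18-month replicate 1.

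Of 142 alternative values of named pairs, 124 kept direction and side of the threshold, 4 newly passed it, all Glra3 in Müller glia (log2 1.03 to 2.03 over its alternatives, adjusted p 0.0162 to 1), and 14 changed sign, all of differences close to 0. Glra1 in OFF cone bipolar nuclei (-0.003) became 0.026 with the release term, 0.010 with the replicate block, 0.013 with no filter, 0.198 with the release term without 18-month replicate 3, and -0.309 to 0.199 with 1 library left out. Glra3 in glycinergic amacrine nuclei (-0.03) became 0.056 with no filter and -0.353 to 0.473 with 1 library left out. Glrb in GABAergic amacrine nuclei became 0.004 with the release term without 18-month replicate 3, and Gphn in glycinergic amacrine nuclei -0.005 in that setting and -0.097 (without 18-month replicate 3) to 0.368 with 1 library left out. Glra2 in glycinergic amacrine nuclei stayed between -1.06 and -0.55, Slc6a9 in AII amacrine nuclei between -0.93 and -0.31, and Slc32a1 in GABAergic amacrine nuclei between -1.34 and -0.37. The log2 ratio of a member's first to second class kept its sign in 77 of 80 cases; Glrb turned to -0.45 at the other resolution and -0.023 after thinning, and Gphn to -0.021 after thinning. The cause was not tested. Glra1 in ON cone bipolar nuclei and Glra4 outside ganglion nuclei had too few counts to be fitted.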

Other observations

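Slc6a5 encodes GlyT2, the glycine transporter of many glycinergic neurons elsewhere in the nervous system, and it was chosen here after its values were seen, being also one of the genes used to name glycinergic amacrine nuclei. Summed over the 6 libraries it stood at 110 CPM in AII amacrine nuclei (exact Poisson 95% interval 97.1 to 125), 50.7 CPM in the other glycinergic amacrine nuclei (41.2 to 61.7) and 37.0 CPM in GABAergic amacrine nuclei (32.8 to 41.6). Microglia stood at 5.38 CPM (1.11 to 15.7) and ganglion nuclei at 1.17 CPM (0.76 to 1.73).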
